A study of Mus musculus with 4 samples.

Results

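Elovl3, Cidea, Scd1, Scd3, Awat2, Far2, Soat1, Mc5r and Mgst1 are 9 genes of lipid synthesis and lipid handling in the sebaceous gland. They were picked by symbol from a table of 24441 genes, and 9 of the 9 were found there. The choice followed the difference that Elovl3 and Cidea show between the genotypes, so every difference between GSDMD knockout (KO) and wild type (WT) mice in these 9 genes is given as a description and without a test. The table holds 4 libraries of skin RNA from female C57BL/6 mice, 2 of GSDMD-/- and 2 of WT skin, labelled as postnatal week 8. All of these mice were given bleomycin (BLM), a cytotoxic antibiotic used to induce skin fibrosis, by injection under the skin of the back on alternate days until day 28. No library of untreated or saline-treated skin was analysed here, so the values describe BLM-injected skin of both genotypes. GSDMD is the protein that forms pores in the membrane in pyroptosis, an inflammatory cell death, and the knockout is named without restriction to a tissue. Values are FPKM, fragment numbers divided by transcript length and sequencing depth, so that levels can be compared between genes. Pairs of values are given as replicate 1, then replicate 2.

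The sebaceous gland is an appendage of the hair follicle whose cells, the sebocytes, fill with lipid droplets, burst and release their content as sebum. Sebum of the mouse consists of wax esters, diesters, sterol esters and triglycerides made from very long and monounsaturated fatty acids. Elongases lengthen the fatty acid, desaturases place a double bond, reductases turn part of the acids into fatty alcohols, and acyltransferases join acids to alcohols or sterols. Several of these genes are not limited to sebocytes. Scd1 is also strongly expressed in white adipocytes, and Elovl3 and Cidea are classical genes of brown fat.

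The genes fell into 2 sets. For Elovl3, Far2, Awat2, Soat1 and Cidea, 5 of the 9, both KO libraries lay above both WT libraries. Such an order was found in 35.3% of the 13027 genes that reached 1 FPKM in 2 or more libraries. The opposite order was found in 20.5% of all genes and in 0 of the 9. For Scd1, Scd3, Mc5r and Mgst1 the groups overlapped. The median log2 fold change, KO over WT, was 2.45 for the 9 genes and 0.11 for all 13027 genes. Leaving out KO replicate 2 brought this median to 1.41, and leaving out KO replicate 1 brought it to 3.49. All 9 passed the filter on low values, although Awat2 and Scd3 reached 1 FPKM in only 1 of the 2 WT libraries and passed with the help of the KO libraries. In bulk skin, more sebocytes and more RNA per sebocyte cannot be told apart, nor can either be told from a different makeup of the sampled tissue.

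Promoter sequences from RefSeq (GRCm38.p6) were at hand for Awat2, Far2, Mgst1, Scd3 and Soat1, 5 of the 9 genes. They are printed for Far2, Soat1 and both annotated starts of Awat2, because these are the genes of the set with separate groups that have an entry. Each line holds the 250 bases before the start site, 5′ to 3′ on the gene's strand. Capitals mark matches to the CCAAT box (letters CCAAT) and to the GC box (letters GGGCGG), with matches on the other strand printed as their reverse complement. The windows are chr6:148047166-148047415 on the plus strand for Far2 and chr1:156474329-156474578 on the minus strand for Soat1. For Awat2 they are chrX:100442718-100442967 (start A) and chrX:100412588-100412837 (start B), both on the minus strand.
Far2: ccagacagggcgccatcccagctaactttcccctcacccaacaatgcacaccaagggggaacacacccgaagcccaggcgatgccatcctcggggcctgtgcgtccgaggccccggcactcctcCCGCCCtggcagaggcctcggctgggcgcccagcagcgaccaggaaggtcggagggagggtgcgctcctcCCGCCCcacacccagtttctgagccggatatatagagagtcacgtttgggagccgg
Soat1: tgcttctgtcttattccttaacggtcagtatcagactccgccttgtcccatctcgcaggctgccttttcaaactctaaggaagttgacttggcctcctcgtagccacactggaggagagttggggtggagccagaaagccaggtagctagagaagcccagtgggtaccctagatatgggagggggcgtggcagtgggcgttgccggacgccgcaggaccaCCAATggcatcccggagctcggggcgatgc
Awat2 start A: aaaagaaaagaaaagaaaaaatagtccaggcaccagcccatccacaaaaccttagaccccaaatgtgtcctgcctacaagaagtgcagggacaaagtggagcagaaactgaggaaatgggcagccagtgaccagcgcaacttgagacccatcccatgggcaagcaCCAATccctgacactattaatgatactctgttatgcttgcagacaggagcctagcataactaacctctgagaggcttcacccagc
Awat2 start B: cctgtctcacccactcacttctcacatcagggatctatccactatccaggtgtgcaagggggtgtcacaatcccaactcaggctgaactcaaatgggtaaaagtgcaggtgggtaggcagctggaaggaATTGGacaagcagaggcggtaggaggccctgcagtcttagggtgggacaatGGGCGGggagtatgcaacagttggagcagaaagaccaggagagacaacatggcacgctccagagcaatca

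In these windows, Far2 holds 2 GC boxes and Soat1 holds 1 CCAAT box. Start A of Awat2 has 1 CCAAT box, and start B has 1 match to each motif. Among all 32851 promoter windows of the same length, 33.8% hold the CCAAT box and 32.7% hold the GC box. The TATA box (letters TATAAA), a nuclear receptor motif (letters AGGTCA), an E-box (letters CACGTG) and a sterol element (letters TCACNCCAC) were also searched on both strands. They occur in 12.4%, 14.0%, 6.02% and 1.05% of all windows and were not found in the 4 windows printed. The GC content was 67.2% for Far2, 58.8% for Soat1, and 48.4% and 54.4% for starts A and B of Awat2, with a median of 52.4% over all windows. A match of letters is a description of the sequence and no measure of binding.

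Gsdmd itself had 14.0 and 18.2 FPKM in WT against 3.53 and 2.26 FPKM in KO skin, and its log2 fold change was -2.14 with a standard error of 0.29 and a Benjamini-Hochberg adjusted p = 0.248 in limma. Over all genes, 0 of 13027 (0%) passed an adjusted p under 0.05 with a log2 fold change beyond 1 in size in limma, while 2230 genes had an unadjusted p under 0.05. With the limit on the fold change added, 802 genes (6.16%) had higher and 539 (4.14%) had lower values in KO skin. With median-ratio factors this split was 632 higher and 707 lower, and the median log2 fold change of all genes moved from 0.11 to 0.01. An exact two-sided permutation test of 2 against 2 libraries cannot give a p below 0.333. The libraries differed in composition within a genotype. Summed over 12 fibroblast markers, KO replicate 2 held 39.4 FPKM and the other 3 libraries held 297.7 to 591.5 FPKM. The sum of 10 endothelial markers was 18.6 FPKM in KO replicate 2 and 117.5 to 176.8 FPKM in the others. Inner root sheath genes of the hair follicle reached 358.5 FPKM in KO replicate 1, with 9.32 to 47.0 FPKM elsewhere. The sums of 12 macrophage markers were 2144 and 2231 FPKM in WT against 881.9 and 96.6 FPKM in KO skin, and 7 of the 12 were lower at the unadjusted limit. Skeletal muscle markers summed to 34679 and 31458 against 21010 and 21949 FPKM, with 3 of 13 tested lower. In 6 of 7 tested hair shaft genes, 4 of 5 hair matrix genes and 3 of 6 inner root sheath genes both KO libraries lay above both WT libraries, against 35.3% of all genes. Their median log2 fold changes were 1.71, 1.04 and 2.56. Without KO replicate 1 those of the tested inner root sheath genes ran from -0.89 for Krt25 to 1.92 for Gata3. Without KO replicate 2 they ran from 1.39 for Gata3 to 5.52 for Krt25. The lists hold 18, 12 and 11 genes. Of the 7 tested hair shaft genes 4 passed the filter on low values only through the KO libraries, as did 1 inner root sheath gene. At the unadjusted limit 4, 2 and 2 genes of these lists were higher, against 6.16% of all genes. Krt32, Krt35 and Krt85, 3 of the 4 higher hair shaft genes, and Krt28 of the inner root sheath had passed the filter in this way. The part of hair follicle genes in the sebaceous values was not tested. Of 15 Y-linked genes, 4 were above 0 in KO replicate 2 and 0 in the other libraries, although all mice are labelled female. The part of this library's makeup in the results below was not tested.

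Elovl3 encodes an elongase that makes saturated and monounsaturated very long-chain fatty acids, and loss of its function is known to alter sebum and fur. It lies on chromosome 19 of mm9, from 46206389 to 46210184, with 4 exons. WT replicates 1 and 2 had 8.90 and 4.64 FPKM, whereas KO replicates 1 and 2 had 58.3 and 297.5 FPKM. Both KO libraries thus lay above both WT libraries, and KO replicate 2 stood far above KO replicate 1. Relative to the WT mean of 6.77 ± 3.02 FPKM (SD, n = 2), KO replicate 1 was 8.61 times and KO replicate 2 was 43.9 times as high. The log2 fold change, computed like all others from log2(FPKM + 1), was 4.15 (standard error 0.80) and ranked 2 among the 13027 genes. It was 2.99 without KO replicate 2. An exon of Elovl3 overlaps Pitx3 on the opposite strand, and strand-specific counting is not stated. Pitx3 had 5.23 and 4.09 FPKM in the WT pair against 2.42 and 2.10 FPKM in the KO pair, and the part of the overlap was not tested.

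Far2 encodes a fatty acyl-CoA reductase that makes the fatty alcohols used for wax esters (chromosome 6 of mm9, 147995938 to 148131282, 12 exons). Its values were 7.75 and 2.99 FPKM in WT skin, compared with 34.6 and 266.9 FPKM in KO skin. The order of the libraries was the same as for Elovl3, from WT replicate 2 as the lowest to KO replicate 2 as the highest. Its log2 fold change of 4.05 (standard error 1.00) ranked 4 among all genes and was 2.59 without KO replicate 2. Exons of Far2 overlap B230104C08Rik and Ergic2 on the opposite strand. Ergic2 had 7.71 to 13.7 FPKM in the 4 libraries, and B230104C08Rik was not analysed here.

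Awat2 encodes the wax synthase that joins fatty alcohols to acyl chains. The gene lies on the X chromosome from 97597561 to 97638056 in mm9. It was low in WT mice, with 1.05 and 0.602 FPKM, and it had 4.87 and 24.1 FPKM in KO replicates 1 and 2. By the approximate worth of a single fragment, the WT values rest on an estimated 36.5 and 17.0 fragments and the KO values on 133 and 608 fragments. Both KO libraries were above both WT libraries. The log2 fold change was 2.74 (standard error 0.70) and was 1.69 without KO replicate 2.

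Soat1, which encodes the acyltransferase that esterifies cholesterol for storage in droplets, lies on chromosome 1 from 158358239 to 158404459 and has 16 exons. Libraries of WT mice had 6.03 and 3.70 FPKM, and those of KO mice had 14.3 and 63.7 FPKM. The gap between the genotypes was narrower than for the elongase and the reductase: KO replicate 1 was 2.37 times the higher WT library, against 6.55 times for Elovl3. The log2 fold change was 2.45 (standard error 0.71), with 1.41 left when KO replicate 2 was omitted.

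Cidea encodes a lipid droplet protein that lets droplets fuse and grow (chromosome 18 of mm9, 67503218 to 67527448, 5 exons). It stood at 11.3 and 15.1 FPKM in WT skin, against 44.6 and 267.3 FPKM in KO skin. Unlike Elovl3, Far2, Awat2 and Soat1, it was not lower in WT replicate 2 than in WT replicate 1. The log2 fold change was 2.97 (standard error 0.84), with 1.70 left without KO replicate 2. Cidea shares exonic sequence with B430212C06Rik on the opposite strand, which had at most 1.18 FPKM.

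**Figure D1:**
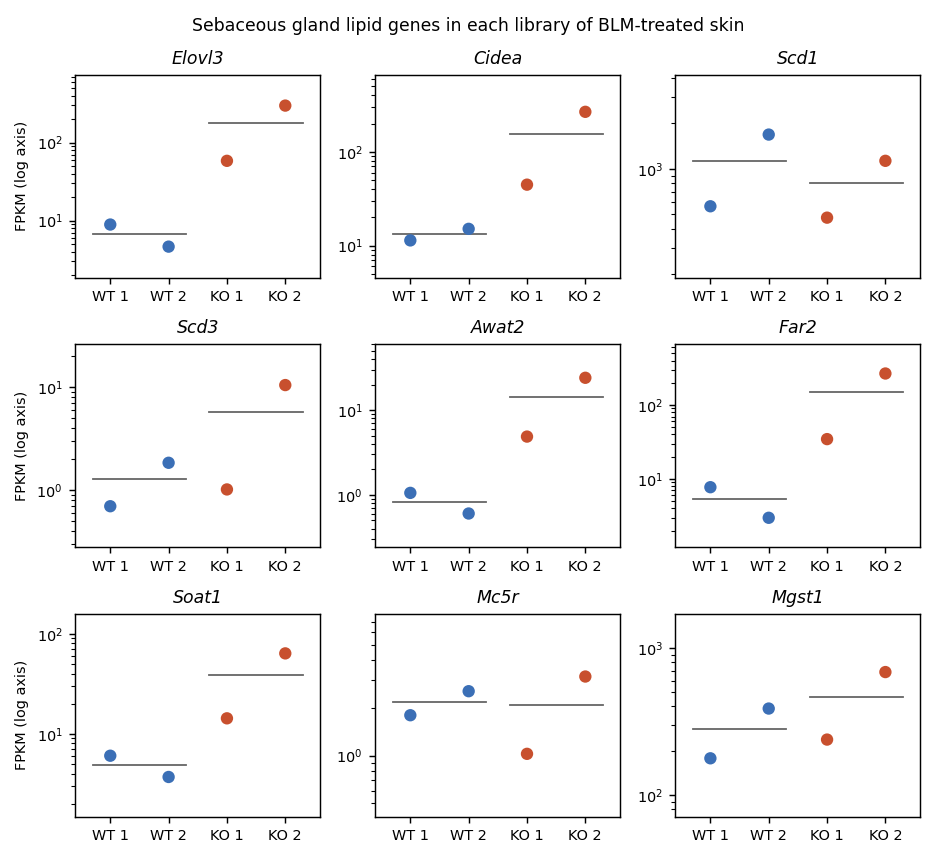
Level of each of the 9 genes in FPKM (log axis, a range of its own per panel) in the 2 WT libraries (blue) and the 2 KO libraries (red), with grey lines at the group means. Both red points lie above both blue points for Elovl3, Cidea, Awat2, Far2 and Soat1, and KO replicate 2 is above KO replicate 1 in all 9 panels.

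The stearoyl-CoA desaturases place the double bond that makes oleic and palmitoleic acid. Scd1 was the most abundant of the 9 genes, with 564.2 and 1685 FPKM in WT libraries, while KO libraries had 474.2 and 1129 FPKM. WT replicate 2 was the highest and KO replicate 1 the lowest library, so the groups overlapped. The log2 fold change of -0.41 (standard error 0.67) was 0.37 without WT replicate 2 and 0.21 without KO replicate 1, on the other side of 0. It was -1.20 without WT replicate 1 and -1.04 without KO replicate 2. Scd3, a desaturase known from sebocytes, had 0.695 and 1.83 FPKM in the WT pair against 1.01 and 10.4 FPKM in the KO pair. KO replicate 2 alone was high, and KO replicate 1 lay between the WT libraries. Its log2 fold change of 1.13 (standard error 0.85) became -0.12 without KO replicate 2 and 2.38 without KO replicate 1. The pair are neighbours on chromosome 19 (Scd1 from 44468940 to 44482199, Scd3 from 44277778 to 44318506), and 6.63% of the 50-base stretches in the longest Scd3 transcript also occur in another coding gene, most often Scd1. Since Scd1 was far more abundant, the low Scd3 values are uncertain where fragments match both.

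Mc5r encodes the melanocortin 5 receptor, known to drive secretion in sebaceous and other exocrine glands. It was low in every library, with 1.80 and 2.55 FPKM in WT skin, compared with 1.02 and 3.16 FPKM in KO skin, from an estimated 16.6 to 47.5 fragments. The KO libraries lay on both sides of the WT libraries. The log2 fold change of -0.12 (standard error 0.41) was 0.05 without WT replicate 2 and 0.40 without KO replicate 1. It was -0.29 without WT replicate 1 and -0.64 without KO replicate 2. In Mc5r, KO replicate 2 was 3.08 times KO replicate 1, so the KO libraries lay further apart than the group means of 2.17 and 2.09 FPKM. Mgst1, a membrane-bound glutathione transferase that detoxifies lipid peroxides, had 177.4 and 386.9 FPKM in WT libraries, while KO libraries had 237.9 and 685.4 FPKM. It was highest in KO replicate 2, but KO replicate 1 was below WT replicate 2. The log2 fold change of 0.62 (standard error 0.63) was -0.14 without KO replicate 2, on the other side of 0, and 0.06 without WT replicate 1.

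The KO libraries differed from each other in all 9 genes. KO replicate 2 had at least 2 times the level of KO replicate 1 in 9 of the 9, an excess found in 4.13% of the 13027 genes. The ratio of KO replicate 2 to KO replicate 1 was 4.46 to 7.71 in the 5 genes with separate groups and 2.38 to 10.3 in the other 4. In the WT libraries the genes divided in another way. Elovl3, Far2, Awat2 and Soat1 were 1.63 to 2.59 times as high in WT replicate 1 as in WT replicate 2. Cidea, Scd1, Scd3, Mc5r and Mgst1 were higher in WT replicate 2, with ratios of 1.33 to 2.99, and of all tested genes 39.2% were higher in that library.

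White adipocyte genes, measured here because Scd1 is expressed in fat too, differed within each genotype. Summed over 18 markers, they stood at 5615 and 13126 FPKM in WT skin, against 6105 and 1428 FPKM in KO skin, and 0 of the 18 markers were at 0 in any library. All 18 were higher in WT replicate 2 than in WT replicate 1. KO replicate 2 was the lowest library in 18 of 18. Thus 0 of the 18 were higher in KO replicate 2 than in KO replicate 1, whereas 52.1% of all tested genes were. The limit of an unadjusted p under 0.05 together with a log2 fold change beyond 1 in size was passed by 0 of the 18 in either direction, and their median was -1.94. The median was -0.46 without KO replicate 2 and -1.12 without WT replicate 2. Without KO replicate 1 the count of lower genes was 17, in a fit where 12.3% of all genes were lower, and without WT replicate 1 it was 4, where 3.29% were. Adipoq, which encodes the adipocyte hormone adiponectin, had 213.6 and 648.9 FPKM in the WT pair against 187.1 and 16.9 FPKM in the KO pair, a log2 fold change of -2.69 that was -0.99 without KO replicate 2. The log2 fold changes of the list ran from -3.15 for Retn, the adipocyte hormone resistin, to -0.58 for Acvr1c, an activin receptor. Without KO replicate 2 that of Retn was -1.03 and that of Acvr1c was 0.01. The part of fat in the values of Scd1 and Mgst1 was not tested.

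**Figure D2:**
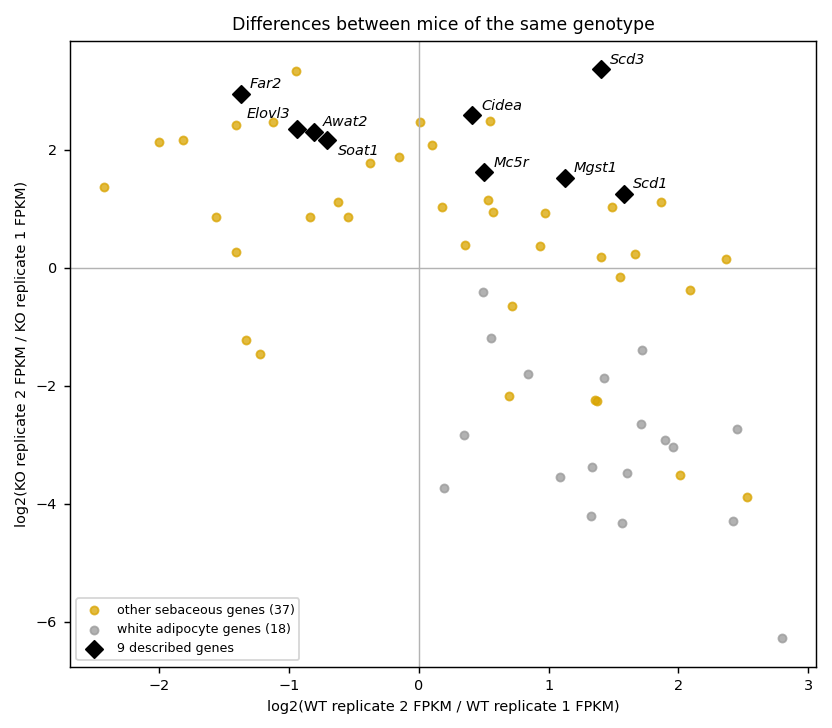
Log2 ratio of WT replicate 2 to WT replicate 1 (horizontal axis) against that of KO replicate 2 to KO replicate 1 (vertical axis) for the 9 genes (black diamonds), 37 other sebaceous genes (yellow) and 18 white adipocyte genes (grey). All 9 diamonds lie above 1 on the vertical axis and all grey points lie below 0, while on the horizontal axis 5 diamonds and all grey points are to the right of 0.

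Genes of brown and beige fat were examined because Elovl3 and Cidea are expressed there. Ucp1, the uncoupling protein that defines the brown adipocyte, had 0.0376 and 0.682 FPKM in WT skin, compared with 0.143 and 0.361 FPKM in KO skin, and was too low to be tested. Of 14 brown fat genes other than Elovl3 and Cidea, 8 were tested, with 1 higher and 0 lower at the same limit, passed by 6.16% and 4.14% of all genes, and a median log2 fold change of -0.22. Under median-ratio or upper-quartile factors, and without KO replicate 1, 1 was lower. The gene that was higher is Pank1, a pantothenate kinase of coenzyme A synthesis that is not limited to brown fat, with a log2 fold change of 2.39 and a standard error of 0.71 (limma, adjusted p = 0.248). Without KO replicate 2 its log2 fold change was 1.33. Without WT replicate 1 or WT replicate 2 it was not past this limit, and the count was 0. Cpt1b, the mitochondrial carnitine transferase of muscle and brown fat, had the lowest log2 fold change of the list, -0.96 (adjusted p = 0.284 by limma). Cox8b and Cox7a1, subunits of cytochrome oxidase also found in muscle, had 755.8 to 1092 and 199.6 to 446.3 FPKM in the 4 libraries, and the groups overlapped for both.

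Other genes of sebocytes and sebum synthesis were taken from a list of 38, of which 37 were tested. At the unadjusted limit 16 of them (43.2%) were higher in KO mice, against 6.16% of all genes, and 3 were lower, against 4.14%. Like the other lists, this one was chosen with earlier results of these data known, so these counts are a description. Of the 16, Dgat2l6 and Hsd3b6 reached 1 FPKM only in KO libraries and passed the filter through them. At the adjusted threshold the count was 0 by limma, as it was for each of the other lists described here. The median log2 fold change of the list was 0.80, with 0.25 without KO replicate 2 and 1.35 without KO replicate 1. In 19 of the 37 both KO libraries were above both WT libraries, against 35.3% of all genes, and in 7 they were below both, against 20.5%. In the 19, KO replicate 2 was 1.20 to 10.1 times KO replicate 1. Fa2h, the fatty acid 2-hydroxylase, had the highest log2 fold change of the list (4.28, standard error 0.86, adjusted p = 0.248 by limma), with 18.4 and 8.44 FPKM in WT libraries, while KO libraries had 111.1 and 617.1 FPKM. Without KO replicate 2 its log2 fold change was 3.05. Awat1, another wax synthase, had 3.49 and 0.993 FPKM in the WT pair against 14.0 and 62.4 FPKM in the KO pair. Hsd3b6, a hydroxysteroid dehydrogenase of steroid hormone synthesis, stood at 0.709 and 0.368 FPKM in WT skin, against 3.13 and 31.6 FPKM in KO skin. Krt79, which is also on the keratinocyte list below, is a keratin of the sebaceous duct and the follicle's funnel and had 155.9 and 101.1 FPKM against 426.6 and 918.6 FPKM.

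The 3 genes of the list that were lower were Fasn, Acaca and Ces1f. Fasn and Acaca encode fatty acid synthase and acetyl-CoA carboxylase, which supply the palmitate that elongases extend, in fat as well as in sebocytes. Fasn had 115.3 and 491.6 FPKM in WT skin, compared with 61.8 and 47.7 FPKM in KO skin, a log2 fold change of -2.11 and a standard error of 0.70 (limma, adjusted p = 0.262). It was -1.07 without WT replicate 2 and -3.16 without WT replicate 1. Ces1f, a carboxylesterase, had the lowest log2 fold change, -2.59 (standard error 0.94, adjusted p = 0.278 by limma). It was -1.43 without WT replicate 2, -1.70 without KO replicate 2 and -3.75 without WT replicate 1. The count of lower genes depended on single libraries: it was 9 without WT replicate 1, 1 without WT replicate 2, 8 without KO replicate 1 and 1 without KO replicate 2, in fits where 3.29%, 1.86%, 12.3% and 2.56% of all genes were lower.

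**Figure D3:**
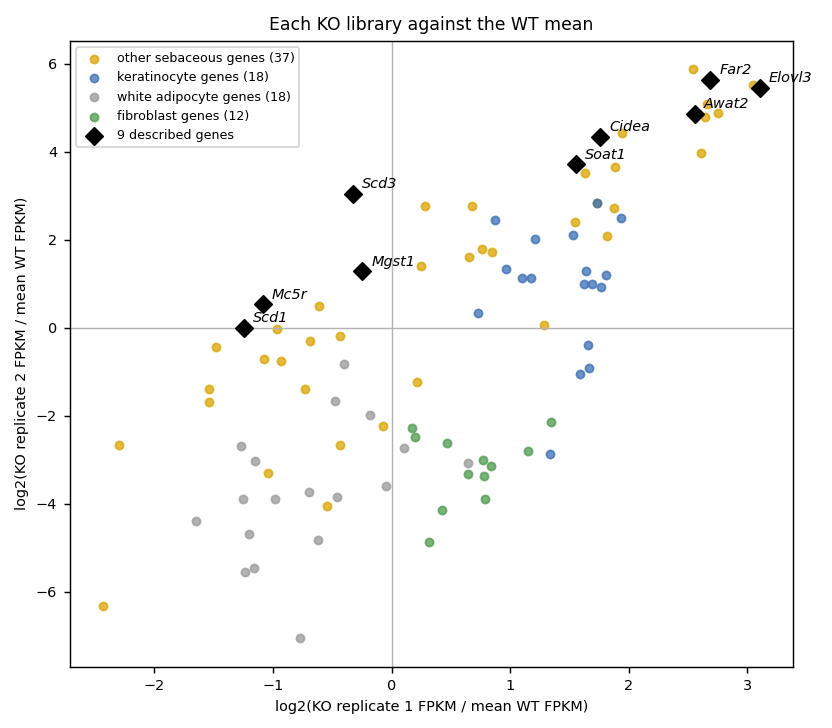
Log2 ratio of KO replicate 1 (horizontal axis) and of KO replicate 2 (vertical axis) to the mean FPKM of the 2 WT libraries, for the 9 genes (black diamonds) and for tested genes of the other sebaceous, keratinocyte, white adipocyte and fibroblast lists. Elovl3, Far2, Awat2, Cidea and Soat1 lie at the upper right among yellow points of the sebaceous list, Scd1, Scd3, Mc5r and Mgst1 lie left of 0, and the fibroblast genes are above 0 in KO replicate 1 and below 0 in KO replicate 2.

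Markers of keratinocytes, the main cells of the epidermis, were measured beside the sebaceous genes. Of 18 tested keratinocyte markers, 12 were higher and 0 lower at the unadjusted limit, against 6.16% and 4.14% of all genes. Their median log2 fold change was 1.40. Without WT replicate 2 the count of higher genes was 5, in a fit where 2.04% of all genes were higher. Summed over the 19 markers listed, WT libraries had 6030 and 4204 FPKM and KO libraries 13298 and 8047 FPKM, and 1 marker, Krt2, was at 0 in a library. The basal keratin Krt5 had 764.1 and 765.4 FPKM in WT libraries, while KO libraries had 1728 and 1664 FPKM, a log2 fold change of 1.15 and a standard error of 0.24 (limma, adjusted p = 0.248). Lor, the cornified envelope protein loricrin, had 2844 FPKM in KO replicate 1 but only 155.0 FPKM in the other KO library, and its log2 fold change of -0.70 was 1.39 without KO replicate 2. Scaled to the mean of Krt5 and Krt14 in each library, a step added after the data had been seen, both KO libraries lay above both WT libraries in 5 of the 9 genes, below both in 2, Scd1 and Mc5r, and overlapped with them in 2. Of all genes on this scale, which lowers all KO values, 2.72% were above and 77.9% below. On this scale the log2 fold change was 3.10 for Elovl3, 3.02 for Far2, 1.97 for Awat2, 1.89 for Cidea and 1.44 for Soat1. It was -1.54 for Scd1, -0.86 for Mc5r and -0.50 for Mgst1. For Soat1 and Cidea the gap in KO replicate 1 was narrow. Scaled Soat1 was 9.64 FPKM in KO replicate 1 and 43.2 in KO replicate 2, against 8.75 in WT replicate 1. Scaled Cidea was 30.1 FPKM in KO replicate 1 and 181.2 in KO replicate 2, against 22.7 in WT replicate 2. In Elovl3, Far2 and Awat2, KO replicate 1 stood further above the WT pair in proportion.

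The families of the 9 genes held 14 tested relatives out of 23, and 9 of the 23 are also on the sebaceous list above. The unadjusted limit was passed by 6 that were higher and 0 that were lower in KO skin, against 6.16% and 4.14% of all genes. These 6 are Elovl4, Elovl6, Elovl7, Awat1, Dgat2l6 and Far1. All 6 are also among the higher genes of the sebaceous list and were counted there already. Of the 6, 1, Dgat2l6, passed the filter only through the KO libraries. The median log2 fold change was 0.92. This median depends on the filter on low values: it was 0.00 without a filter and -0.11 with a filter of 0.1 FPKM. Without KO replicate 1 the count of lower genes was 4, in a fit where 12.3% of all genes were lower. Among the elongases, Elovl4 had the highest log2 fold change of the family list (4.08, standard error 0.92, adjusted p = 0.248 by limma), with 47.7 and 11.9 FPKM in the WT pair against 201.0 and 883.4 FPKM in the KO pair. It was 3.01 without KO replicate 2. Elovl6, which lengthens palmitate, had 24.2 and 24.3 FPKM in WT skin, compared with 93.3 and 517.9 FPKM in KO skin. Elovl1, which is expressed in most tissues, had 53.9 and 42.9 FPKM against 96.8 and 39.4 FPKM, with overlapping groups.

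Relatives of the acyltransferases and droplet proteins differed from one another. Dgat2, the triglyceride synthase of fat and other tissues, had 79.1 and 202.2 FPKM in WT libraries, while KO libraries had 103.8 and 22.1 FPKM. Cidec, the droplet protein of white fat, had the lowest log2 fold change of the family list (-1.94, standard error 1.27, adjusted p = 0.441 by limma), with 115.7 and 467.3 FPKM in the WT pair against 200.4 and 17.6 FPKM in the KO pair. Without KO replicate 2 it was -0.21. In KO replicate 2 Cidea was thus at 267.3 FPKM and Cidec at 17.6 FPKM, whereas in WT replicate 2 they stood at 15.1 and 467.3 FPKM. Scd2, the desaturase found in most tissues, had 26.6 and 37.4 FPKM in WT skin, compared with 38.8 and 9.16 FPKM in KO skin. Far1, the reductase of peroxisomal ether lipid synthesis, had 6.43 and 3.58 FPKM against 9.01 and 16.4 FPKM. The other melanocortin receptors and the Soat relative Soat2 were low, and of the receptors only Mc2r, the corticotropin receptor, reached 1 FPKM, with 0.423 to 4.73 FPKM.

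**Figure D4:**
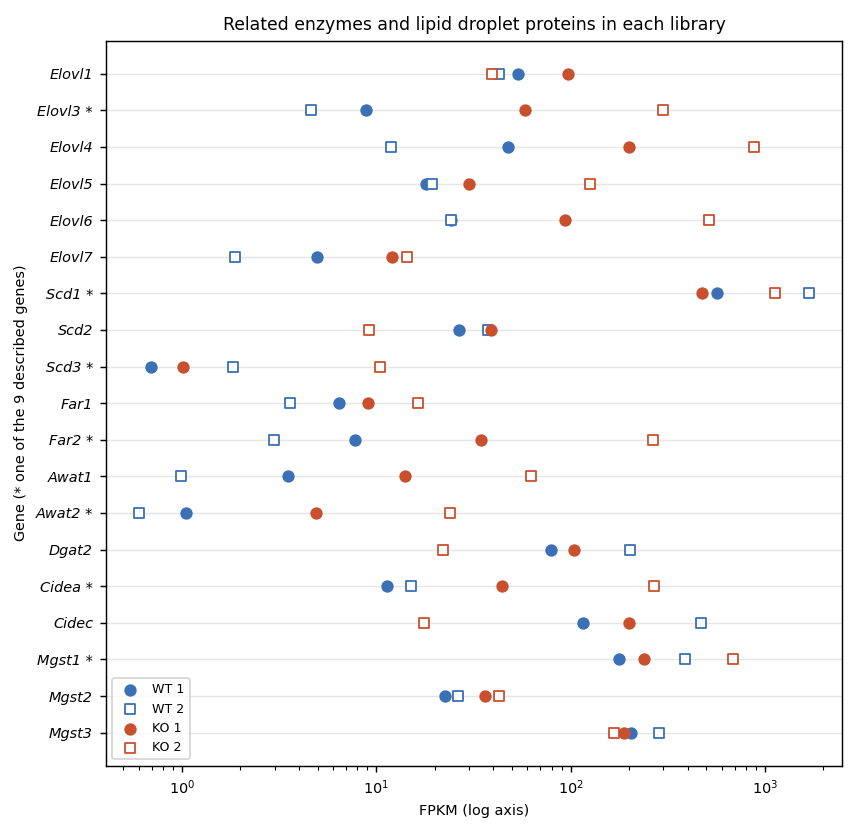
FPKM (log axis) of 19 genes from the families of the 9 genes (marked with *) in WT replicate 1 (filled blue), WT replicate 2 (open blue), KO replicate 1 (filled red) and KO replicate 2 (open red). Both red symbols lie right of both blue symbols for Elovl3, Elovl4, Elovl5, Elovl6, Elovl7, Far1, Far2, Awat1, Awat2, Cidea and Mgst2, and the open red square is the leftmost symbol for Cidec, Dgat2, Scd2, Elovl1 and Mgst3.

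Regulators of sebocytes were also examined, 16 in all, of which 14 were tested. At the unadjusted limit 1 was higher and 0 lower, near the 6.16% and 4.14% of all genes. The median log2 fold change was 0.14, and 5 were higher and 2 lower without KO replicate 1, where 10.8% and 12.3% of all genes were. Without KO replicate 2, 0 were higher, where 5.63% of all genes were, and without WT replicate 1, 3 were lower, where 3.29% were. That gene was Fgfr2, the fibroblast growth factor receptor of skin epithelium, with 4.59 and 4.17 FPKM in WT libraries, while KO libraries had 9.54 and 12.2 FPKM (log2 fold change 1.13, standard error 0.25, adjusted p = 0.248 by limma). Pparg, the nuclear receptor of both adipocyte and sebocyte differentiation, had 14.8 and 39.2 FPKM in WT skin, compared with 14.7 and 33.8 FPKM in KO skin. Mgll, a lipase of monoglycerides, had the highest log2 fold change of the list (1.92, standard error 0.81, adjusted p = 0.307 by limma), with 0.84 left without KO replicate 2. The lowest was that of Mrap, the partner of melanocortin receptors in fat and adrenal gland (-2.50, standard error 1.03, adjusted p = 0.302 by limma), with 20.1 and 96.1 FPKM in WT libraries, while KO libraries had 17.0 and 2.53 FPKM. Without KO replicate 2 it was -1.33.

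The genes most like Elovl3 and Cidea were found by the root-mean-square distance between log2(FPKM + 1) profiles over the 4 libraries, each centred on its own mean. Since that choice uses the same 4 values, no test of these genes is given with their distances. Outside the 9 genes, those near to Elovl3 included Fa2h (distance 0.11), Gm5538 (0.34), Cyp2g1 (0.35) and Aadac (0.40). Nearest to Cidea were Cers4 (0.14), Elovl6 (0.16), Aadacl4 (0.23), Paqr7 (0.25) and C130079G13Rik (0.26). Cers4, a ceramide synthase, had 8.11 and 10.8 FPKM in WT skin, compared with 41.7 and 208.1 FPKM in KO skin. Within the 9, Far2 ranked 2 and Awat2 ranked 27 among all genes in nearness to Elovl3, while Scd1 ranked 10123 and Mc5r ranked 6840.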

How the data were processed

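Skin of 2 WT and 2 GSDMD KO samples was measured by RNA sequencing, and groups follow the labels. Alignment was to mm9 with HISAT2 version 2.0.1, and the submitters' processing notes also name StringTie version 2.0.6. Although the table is named as counts, 99.993% of its values above 0 are not whole, and the deposited values were read as FPKM made by the authors. A count model was therefore not used. Libraries sum to 448544 to 462251 FPKM. The worth of 1 fragment on 1 kb was estimated as 0.0574 to 0.0785 FPKM from 3439 genes, so fragment numbers are approximate.

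Genes that reached 1 FPKM in 2 libraries or more were fitted on log2(FPKM + 1) with limma 3.58.1 (R 4.3.3), by genotype alone and with a mean-variance trend, and p-values were adjusted by Benjamini-Hochberg over 13027 genes. The fit was also run on simulated data with values drawn independently for each gene. Such data hold no shift of many genes in 1 library, so the run cannot vouch for the p-values here. P-values measure only the spread between these samples, which may be technical. Starts in the table were raised by 1 to be 1-based.

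The 9 genes and all lists were chosen with earlier results of these data known. Named genes are the 9, Gsdmd, chosen genes of each list with its highest and lowest fold change, and the 5 nearest profiles to Elovl3 and to Cidea. Some genes that this rule names are not reported here. Alternatives were other pseudocounts, filters and scalings, a fit without the trend, the replicate number as a block and leaving out each library. A crossed block and scaling to Krt5 and Krt14 were added after the data had been seen. Same-numbered libraries had a correlation of deviations of -0.20 and were treated as unpaired.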

Additional observations from a re-analysis of the deposited data

How the results depend on the processing

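Elovl3, Cidea, Far2, Awat2 and Soat1 had a positive log2 fold change in all of 15 alternatives. Of these, 10 can move a single gene's fold change and 5 (both other filters, no trend, both blocks) cannot. In these genes both KO libraries lay above both WT libraries. Leaving out a library or changing the pseudocount could therefore not turn the sign, and leaving out a library could not undo that order. Only the scalings could have turned the sign. The ranges of the log2 fold changes were 2.99 to 5.32, 1.70 to 4.25, 2.59 to 5.50, 1.69 to 3.79 and 1.41 to 3.49. Those of Scd1 (-1.54 to 0.37), Scd3 (-0.12 to 2.38), Mc5r (-0.86 to 0.40) and Mgst1 (-0.50 to 1.38) lay on both sides of 0. When each library was left out, the median of the 9 genes was 1.41 to 3.49 and the number with KO above WT throughout 5 to 8 (41.8% to 50.3% of all genes in these settings), and the genes past the adjusted threshold were 0 to 2058 over the whole table, with 2058 without KO replicate 1 and 43 without KO replicate 2. In these fits the lone library is assumed to vary like the other group. Genes at the unadjusted limit were 266 to 1412 higher and 242 to 1605 lower, and lower genes of the sebaceous list were 1 to 9. Without a filter on low values that last count was 1. With the replicate number as a block, 907 genes were higher and 686 lower, 0 passed the adjusted threshold, and the sebaceous list had 18 higher and 3 lower genes. The crossed block gave 819 higher and 681 lower genes over all and 6 lower on the sebaceous list. On white adipocyte genes the count of lower genes was 0 without a block, 8 with the block and 14 with the crossed block. Mc5r, Scd3 and Awat2 rest on the fewest estimated fragments.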
